A study of Homo sapiens with 6 samples.

Results

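YAP1 and its paralog WWTR1, the TEAD transcription factors and 5 genes known to respond to them were followed in the bulk RNA sequencing of undifferentiated H7 cells, an established human embryonic stem cell (hESC) line. The gene symbols YAP1, WWTR1, TEAD1, TEAD2, TEAD4, CCN1, CCN2, ANKRD1, AMOTL2 and LATS2 were looked up in the deposited count table, and all 10 were found among its 61155 symbols. They were chosen by their known roles together with the fold changes between these same libraries, in which CCN1 and CCN2 were among the lower genes. Their differences between the groups are therefore given as a description, without p-values.

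The groups were 3 libraries of wild-type (WT) H7 hESCs and 3 libraries of S6K1-/- H7 hESCs, in which CRISPR/Cas9 had been directed at exons 9 and 11 of RPS6KB1, the gene of p70 S6 kinase 1 (S6K1). All cells were grown without feeders on Matrigel in TeSR-E8 medium and were not differentiated. The GEO labels call the genotype a knockdown and give a time of week 5, whereas the protocols describe a knockout and undifferentiated cells. The S6K1-/- libraries come from 1 clone, so that a difference of genotype and a difference of clone cannot be told apart, and no source states that the libraries of a group come from separate cultures, so that the spread between them may be technical.

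YAP1 encodes YAP and WWTR1 encodes TAZ, transcriptional coactivators that do not bind DNA themselves and act on chromatin through the TEAD factors. In the Hippo cascade the MST kinases activate the LATS kinases, which phosphorylate YAP and TAZ and keep them out of the nucleus, and cell spreading, matrix stiffness and actin tension have the opposite effect. The activity of the pathway is set largely at the level of the protein and its location, which RNA counts do not measure. CCN1, CCN2 and ANKRD1 are the genes most often read as its output, and AMOTL2 and LATS2 encode inhibitors of YAP that are themselves targets.

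In the GENCODE annotation of GRCh38, the coactivator genes are YAP1 at chr11:102110447-102233424 (plus strand) and WWTR1 at chr3:149517235-149736714 (minus strand), and the TEAD genes are TEAD1 at chr11:12674421-12944737 (plus strand), TEAD2 at chr19:49340595-49362457 (minus strand) and TEAD4 at chr12:2959330-3040676 (plus strand). The CCN genes are CCN1 at chr1:85580761-85584589 (plus strand) and CCN2 at chr6:131948176-131951372 (minus strand). The other targets are ANKRD1 at chr10:90912096-90921087 (minus strand), AMOTL2 at chr3:134355347-134375479 (minus strand) and LATS2 at chr13:20973036-21061586 (minus strand). All are protein-coding, and the counts cover their exons.

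TEAD factors bind the sequence GGAATG, which reads CATTCC on the other strand. Windows of 300 bases, 250 before and 50 after the annotated start, were taken from RefSeq (GRCh38.p14), which gave 10 windows for 7 of the genes, WWTR1, TEAD2 and AMOTL2 having more than 1 start, while windows of TEAD1, TEAD4 and CCN1 were not analysed here. The motif was present on either strand in 5 of these 10 windows, against 14% of all 35116 windows and 11.5% of the 17327 windows of genes tested below. The shorter GAATG was present in 6 of the 10, against 35.7% and 28.3%. The 250 bases upstream are shown for 3 genes, CCN2 because it differed most between the groups and had 3 matches, ANKRD1 because it is the other classical target with more than 1 match, and YAP1 as the coactivator with a match of its own. Capitals mark the motif, and each sequence reads from 5′ to 3′ on the strand of its gene.
CCN2: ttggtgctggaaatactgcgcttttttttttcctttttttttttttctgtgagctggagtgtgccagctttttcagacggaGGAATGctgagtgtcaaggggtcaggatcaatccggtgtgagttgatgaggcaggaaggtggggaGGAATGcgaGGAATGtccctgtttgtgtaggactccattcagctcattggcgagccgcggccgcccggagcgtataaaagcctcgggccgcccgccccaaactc
ANKRD1: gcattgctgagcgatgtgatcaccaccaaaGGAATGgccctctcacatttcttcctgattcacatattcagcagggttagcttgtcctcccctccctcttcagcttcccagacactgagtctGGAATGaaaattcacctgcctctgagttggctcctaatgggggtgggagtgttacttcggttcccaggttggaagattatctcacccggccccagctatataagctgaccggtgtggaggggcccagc
YAP1: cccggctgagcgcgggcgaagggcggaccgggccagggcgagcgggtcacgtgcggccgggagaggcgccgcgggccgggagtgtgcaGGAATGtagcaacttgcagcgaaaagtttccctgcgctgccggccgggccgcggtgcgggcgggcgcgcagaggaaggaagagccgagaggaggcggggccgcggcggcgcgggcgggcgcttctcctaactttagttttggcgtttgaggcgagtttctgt

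The CCN2 sequence covers chr6:131951373-131951622 on the minus strand, that of ANKRD1 covers chr10:90921088-90921337 on the minus strand, and that of YAP1 covers chr11:102110197-102110446 on the plus strand. Upstream of CCN2 the motif began at -169, -104 and -95 relative to the start, in the same orientation each time, and 1.37% of all windows held more than 1 match. In ANKRD1 it began at -220 and -128, and in YAP1 at -162. The second start of AMOTL2 had 1 match on the opposite strand, from -69 to -64, and LATS2 had 1 in the transcribed part, from 10 to 15. No match was found in the windows of WWTR1 and TEAD2. These letters are a description of the reference sequence, and binding of TEAD was not measured here.

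**Figure D1:**
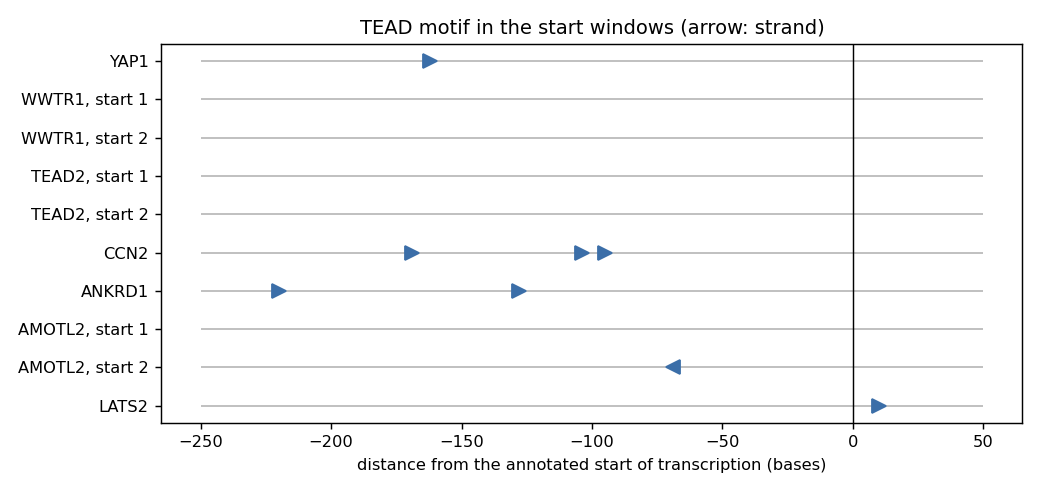
Position of GGAATG in the 10 start windows of 7 genes. The horizontal axis is the distance in bases from the annotated start (vertical line), each grey line is a window and each arrowhead marks the first base on the gene's strand and points along the strand of the motif. CCN2 holds 3 matches and ANKRD1 holds 2, all upstream, and the windows of WWTR1 and TEAD2 hold none.

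Library totals lay between 21896698 and 24473013 counts, and levels are given as CPM, counts per 1000000 of the TMM-scaled library total, with the SD over the 3 libraries. Each gene of the table was compared between the groups with the quasi-likelihood test of edgeR if it passed a filter on low counts, which left 19521 genes, among them 9 of the 10 described here. At an adjusted p under 0.001, 774 of all genes tested were called (3.96%), 496 of them lower (2.54%) and 278 higher (1.42%) in S6K1-/- hESCs. RPS6KB1 itself was at 33.3 ± 0.994 CPM in WT and at 19.8 ± 0.371 CPM in S6K1-/- hESCs (SD, n = 3 each), 59.4% of the WT level, and no WT library was as low as an S6K1-/- library. This RNA value does not measure the protein, and the paper checked the deletion by western blotting and PCR genotyping.

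YAP1 was counted 3994, 4174 and 3901 times in WT and 4257, 4107 and 3632 times in S6K1-/- hESCs. Scaled, YAP1 stood at 167 ± 2.92 CPM in WT and 173 ± 7.37 CPM in S6K1-/- hESCs (SD, n = 3 each), and the libraries of the groups overlapped. The log2 fold change of S6K1-/- over WT (log2FC) was 0.05, with a standard error (SE) of 0.041. WWTR1, which encodes TAZ, was counted 900, 919 and 861 times in WT and 798, 828 and 715 times in S6K1-/- hESCs. Every WT library, from 37.0 to 37.4 CPM, was above every S6K1-/- library, from 32.8 to 34.6 CPM, although the log2FC was only -0.14 (SE 0.050). Per length of merged exons, WWTR1 made up 14.4% ± 0.157 of the summed YAP1 and WWTR1 level in WT and 12.9% ± 0.414 in S6K1-/- hESCs (SD, n = 3 each). Shares and ratios per length depend on the length used, which the SD does not cover. The merged exons of WWTR1 measure 8353 bases and its longest transcript 5037 bases. The exons of WWTR1 share 756 bases, 9.05% of their length, with WWTR1-AS1 on the opposite strand, which had 113 to 141 counts.

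TEAD1, a TEAD factor of most tissues, was at 141, 126 and 146 CPM in the WT libraries and at 141, 138 and 125 CPM in the S6K1-/- libraries. The groups overlapped, and the log2FC of -0.03 (SE 0.056) had the opposite sign in 2 of the 12 alternative fits. TEAD2, the TEAD factor of the early embryo and neural progenitors, was at 129, 144 and 127 CPM in WT and at 144, 149 and 144 CPM in S6K1-/- hESCs. WT replicate 2 reached the S6K1-/- range while the other WT libraries were below it, and the log2FC was 0.13 (SE 0.048). The exons of TEAD2 share 319 bases, 10.7% of their length, with those of CD37 on the opposite strand, which had 923 to 1105 counts itself, and the strand setting of the counting is not stated, so that the TEAD2 values are uncertain.

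TEAD4, a factor known for its role in the trophectoderm, was at 55.4, 54.0 and 55.7 CPM in WT and at 51.3, 52.9 and 54.5 CPM in S6K1-/- hESCs. Only S6K1-/- replicate 3 lay within the WT range, and the log2FC was -0.06 (SE 0.044). TEAD3, which completes the family and is not among the 10 genes, had 44.0 ± 0.489 CPM in WT and 41.3 ± 0.963 CPM in S6K1-/- hESCs (SD, n = 3 each), a log2FC of -0.09 (SE 0.047, edgeR adjusted p = 0.219). Summed over the 4 TEAD genes, the level per kilobase was 96.3 ± 1.99 in WT and 98.3 ± 1.36 in S6K1-/- hESCs (SD, n = 3 each), and the groups overlapped. Within this sum TEAD2 held 46.5% ± 2.32 in WT and 49.8% ± 0.312 in S6K1-/- hESCs, TEAD4 25.1% and 23.7%, TEAD3 15.0% and 13.8%, and TEAD1 13.4% and 12.8%.

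CCN2, which encodes a secreted matricellular protein also known as CTGF, was counted 2764, 2599 and 2728 times in WT and 589, 568 and 618 times in S6K1-/- hESCs. This is 114, 106 and 117 CPM against 25.1, 23.7 and 28.4 CPM, so that the S6K1-/- libraries held 22.9% of the WT mean and stood far below each WT library. The log2FC of -2.13 (SE 0.061) was the 72nd lowest of the 19521 genes tested. CCN1, its paralog also known as CYR61, was counted 1572, 1588 and 1525 times in WT and 658, 722 and 675 times in S6K1-/- hESCs. It went from 64.6, 64.6 and 65.7 CPM to 28.0, 30.2 and 31.0 CPM, 45.8% of the WT mean, with groups far apart. Its log2FC was -1.13 (SE 0.050), the 294th lowest. In such bulk samples, fewer cells that express a gene and less RNA of it per cell cannot be told apart.

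The difference was larger for CCN2 than for CCN1. Per kilobase, CCN2 stood 2.73 ± 0.127 times as high as CCN1 in WT and 1.37 ± 0.110 times as high in S6K1-/- hESCs (SD, n = 3 each), and these ratios did not overlap between the groups. The exons of CCN2 share 278 bases with LINC01013 on the opposite strand, which had at most 2 counts in a library. Of the other CCN genes, CCN3 had 5 to 9 counts in WT and 0 to 3 in S6K1-/- hESCs, CCN5 had at most 3 counts and CCN4 none in any library, and these were not tested. CCN6 had a log2FC of 0.38 (SE 0.206, edgeR adjusted p = 0.262).

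ANKRD1, a nuclear ankyrin repeat protein of striated muscle, was barely detected and did not pass the filter on low counts. It was counted 4, 4 and 6 times in WT and 1, 3 and 0 times in S6K1-/- hESCs. Over the groups these are 14 and 4 counts, a ratio of 0.298 in CPM with an exact 95% interval from 0.0714 to 0.949, which covers counting error only. Its WT level per kilobase was above that of only 2.61% of the 15619 genes tested with an annotated length, whereas that of CCN2 was above 95.8% of them.

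AMOTL2, an angiomotin that holds YAP at junctions, was at 54.8, 53.5 and 55.3 CPM in WT and at 50.9, 47.3 and 46.7 CPM in S6K1-/- hESCs. LATS2, a kinase that phosphorylates YAP, was at 29.7, 28.6 and 29.5 CPM in WT and at 25.4, 24.8 and 24.1 CPM in S6K1-/- hESCs. For these genes each S6K1-/- library was below each WT library, but the differences were small beside those of CCN1 and CCN2, with log2FC values of -0.17 (SE 0.047) for AMOTL2 and -0.24 (SE 0.056) for LATS2. The summed level of AMOTL2, LATS2 and ANKRD1 was 84.0 ± 1.51 CPM in WT and 73.1 ± 2.87 CPM in S6K1-/- hESCs (SD, n = 3 each), and with CCN1 and CCN2 included it was 261 ± 7.90 and 129 ± 2.20 CPM. Summed over YAP1, WWTR1, TEAD1, TEAD2 and TEAD4 it was 531 ± 3.96 and 540.4 ± 14.4 CPM, with overlapping groups.

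**Figure D2:**
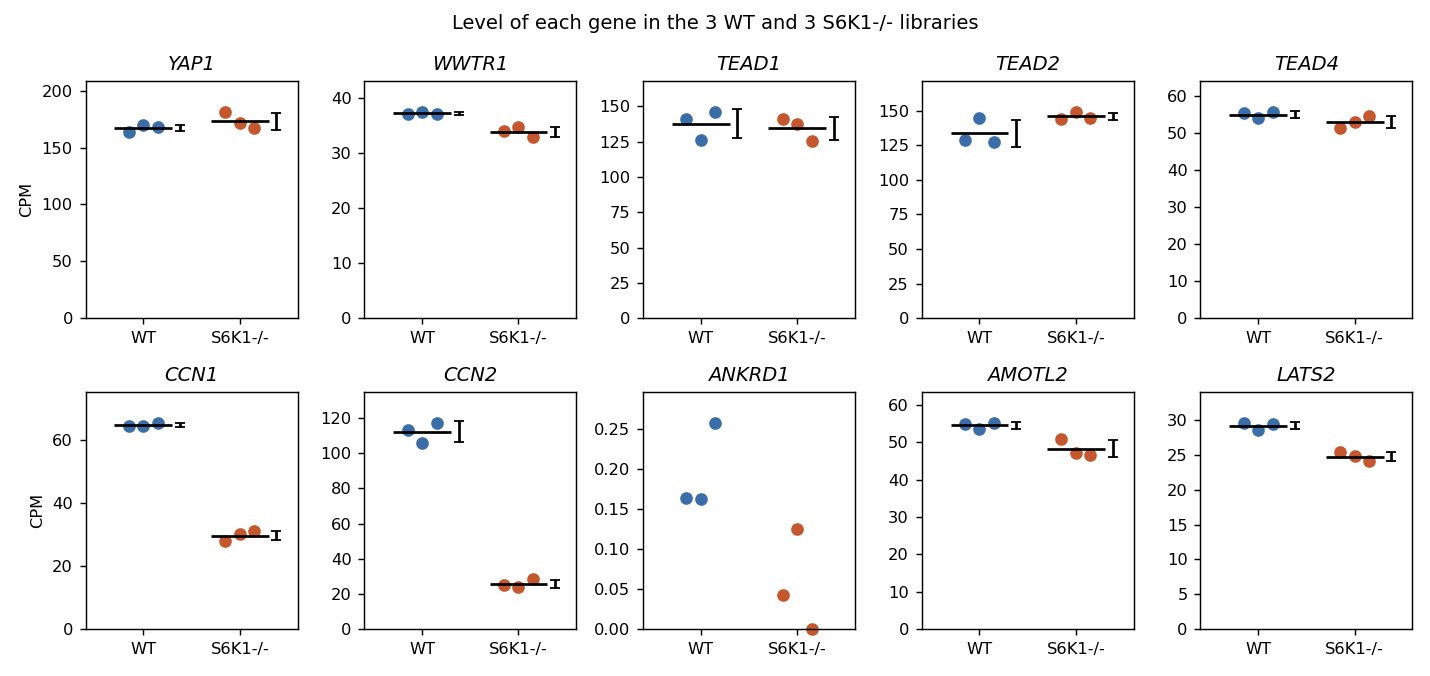
CPM of each gene in the 3 WT (blue) and 3 S6K1-/- (orange) libraries on linear axes from 0. Points are libraries, horizontal bars are means and whiskers are the SD, both left out for ANKRD1, which had at most 6 counts. CCN2 and CCN1 stand far below WT in each S6K1-/- library, WWTR1, AMOTL2 and LATS2 slightly below, and the groups overlap for YAP1, TEAD1, TEAD2 and TEAD4.

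Of the 9 genes tested, 2 were past the adjusted p of 0.001 and both, CCN1 and CCN2, were lower, where 2.54% of all genes tested were lower. At 0.05 there were 4, with AMOTL2 and LATS2 added, where 8.31% of all genes were lower, and none was higher, where 5.47% were. WT and S6K1-/- libraries were fully separated for 5 of the 9 genes, each lower in S6K1-/- hESCs, where 30.7% of all genes did not overlap and 16.7% did so in that direction. The median log2FC of the 9 genes was -0.14, with 7 below 0, and over all genes tested it was -0.0024, with 9879 of 19521 below 0. Because the genes were proposed with this comparison known, nothing is read from these counts.

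**Figure D3:**
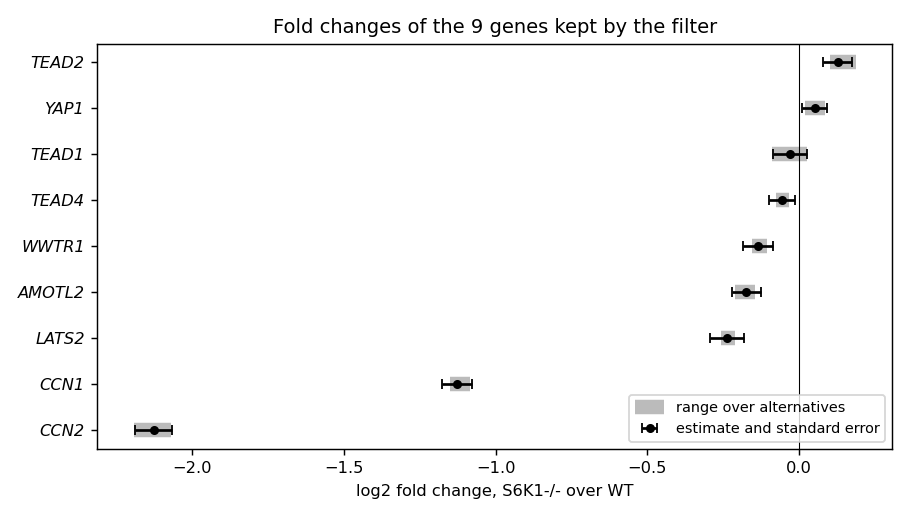
Log2 fold change of S6K1-/- over WT for the 9 genes kept by the filter. Points and whiskers are the estimate and its SE, and grey bars span the 12 alternative fits. CCN2 at -2.13 and CCN1 at -1.13 stand apart from the other genes, which lie between -0.24 and 0.13, and only the bar of TEAD1 crosses 0.

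Levels can be ordered between genes only per length, and CPM per kilobase of merged exons was used for this. In WT hESCs the order was CCN2 (48.0 ± 2.55), TEAD2 (44.8 ± 3.18), YAP1 (26.5 ± 0.463), TEAD4 (24.2 ± 0.403), CCN1 (17.6 ± 0.167), TEAD1 (12.9 ± 0.955), AMOTL2 (8.42 ± 0.144), LATS2 (5.21 ± 0.102), WWTR1 (4.45 ± 0.0259) and ANKRD1 (0.109 ± 0.0306), in CPM per kilobase with the SD over 3 libraries. Of these neighbours, CCN2 and TEAD2 overlapped between libraries and the others did not. YAP1 was thus the more abundant coactivator and TEAD2 the most abundant TEAD transcript.

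In S6K1-/- hESCs, TEAD2 led with 48.9 ± 0.944 CPM per kilobase, followed by YAP1, TEAD4 and TEAD1. CCN2 followed with 11.0 ± 1.03 and overlapped TEAD1, and CCN1 with 8.04 ± 0.416 overlapped AMOTL2 with 7.45 ± 0.350 (SD, n = 3 each). LATS2, WWTR1 and ANKRD1 kept the lowest ranks in the same order. With the longest transcript as the length, 6 of the 10 WT ranks changed, since TEAD2 moved above CCN2, TEAD4 above YAP1 and WWTR1 above LATS2. The authors aligned the reads with Bowtie2, which does not cross splice junctions, so levels of genes with many short exons may be low. The merged exons of CCN1 form 2 blocks of 3698 bases, longer than its longest transcript of 3080 bases. Merging joins exons of different transcripts, so the number of blocks does not give the junctions of a transcript.

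**Figure D4:**
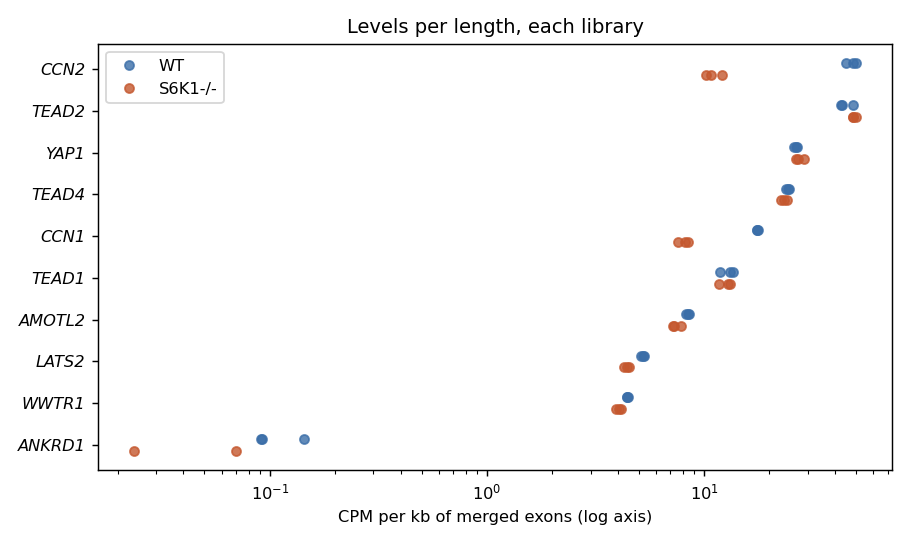
CPM per kilobase of merged exons for each gene, on a log axis, in WT (blue) and S6K1-/- (orange) libraries. Points are libraries and genes are ordered by the WT mean, and the S6K1-/- library with 0 counts of ANKRD1 is not drawn. CCN2 moved from 48.0 to 11.0 and CCN1 from 17.6 to 8.04, while the coactivators and TEAD genes stayed close to their WT values.

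The other genes of the pathway were taken from lists of known members that were drawn up with earlier results of these libraries known, so that their counts and p-values are not independent evidence of a direction. The lists of targets may hold genes that respond to other pathways. In a short list of 17 further YAP and TAZ targets, 15 passed the filter. At an adjusted p under 0.001, 2 of these 15 were lower (13.3%, beside 2.54% of all genes tested) and 0 higher (1.42% of all genes), and at 0.05 there were 6 lower (8.31% of all genes). Without WT replicate 2 the calls at 0.001 numbered 4, with AXL and PTPN14 added. Their median log2FC was -0.19, with 11 of 15 below 0. CCDC80, which encodes an extracellular matrix protein, fell from 22.0 ± 1.08 to 14.3 ± 0.123 CPM (SD, n = 3 each), a log2FC of -0.62 (SE 0.065, edgeR adjusted p = 8.55e-06). MYOF, a membrane repair protein of the ferlin family, fell from 103, 90 and 92 WT counts to 44, 37 and 30, a log2FC of -1.30 (SE 0.158, edgeR adjusted p = 3.92e-05). AXL, a receptor tyrosine kinase, had 28.9 ± 2.01 CPM in WT and 21.9 ± 1.48 CPM in S6K1-/- hESCs (SD, n = 3 each) and just missed the threshold (edgeR adjusted p = 0.00102), but passed it without WT replicate 2 (0.000392).

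A longer list of 50 genes described as responsive to YAP, which also holds genes of the cell cycle such as CDC20 and TOP2A, had 47 tested, with 7 lower (14.9%, beside 2.54% of all genes tested) and 1 higher (2.13%, beside 1.42%). At 0.05 there were 13 lower and 5 higher, where 8.31% and 5.47% of all genes were. The median log2FC of the list was -0.07, with 30 of 47 below 0. FSTL1, which encodes a secreted glycoprotein, fell by 0.45 on the log2 scale (SE 0.038, edgeR adjusted p = 8.72e-07), from 10869, 10738 and 10457 counts to 7746, 7737 and 7089. DDAH1, an enzyme that breaks down methylarginines, fell by 0.44 and FGF2, the growth factor that maintains hESCs, fell by 0.39 (edgeR adjusted p = 9.07e-06 and 1.97e-05). COL4A3, a chain of basement membrane collagen, fell by 1.21 from 4.06 ± 0.0945 to 1.75 ± 0.165 CPM (SD, n = 3 each, edgeR adjusted p = 3.00e-05).

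SH2D4A and THBS1, also lower genes of the longer list, were named after their values were seen, and of the 6 fits with a library left out both genes passed only in the 1 lacking WT replicate 2. ETV5, a factor of the ETS family that responds to FGF signalling, was the only higher gene of the list, with a log2FC of 0.28 (SE 0.040, edgeR adjusted p = 1.76e-04). It was not past 0.001 without S6K1-/- replicate 1 (0.00178) or 3 (0.00143). With each library left out in turn, the calls in the longer list numbered from 4 (without S6K1-/- replicate 3) to 7 (without WT replicate 2), against 8 with all libraries, and were 5 without S6K1-/- replicate 1 or 2 or WT replicate 1. Over both target lists 9 of 62 genes tested were lower (14.5%) and 1 was higher (1.61%), beside 2.54% and 1.42% of all genes tested, and nothing is read from this difference, since the lists were not chosen independently of these libraries.

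Of 22 genes of the Hippo kinase cascade and its upstream kinases, 1 was higher (4.55%, beside 1.42% of all genes tested) and none was lower (2.54% of all genes), with a median log2FC of 0.03. This was TNIK, a kinase of the MAP4K group, which went from 130 ± 7.64 to 159 ± 6.37 CPM (SD, n = 3 each, log2FC 0.29, edgeR adjusted p = 6.96e-04). It missed 0.001 whichever library was dropped, with 0.00178, 0.00118 and 0.00142 when WT replicate 1, 2 or 3 was dropped and 0.00629, 0.00372 and 0.00137 for S6K1-/- replicate 1, 2 or 3. LATS1, the paralog of LATS2, had 36.3 ± 2.05 CPM in WT and 36.4 ± 1.16 CPM in S6K1-/- hESCs (SD, n = 3 each, log2FC 0.0027, SE 0.056). SAV1, the scaffold of the MST kinases, had a log2FC of -0.14 (edgeR adjusted p = 0.0463), and MAP4K4, an upstream kinase, 0.12 (edgeR adjusted p = 0.0577).

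Of 28 tested genes for junction, polarity, angiomotin and phosphatase proteins that act on the cascade, 2 were higher (7.14%, beside 1.42% of all genes tested) and none was lower (2.54% of all genes), with a median log2FC of 0.05. FAT4, a giant protocadherin upstream of the cascade, rose from 316, 242 and 284 WT counts to 660, 583 and 529, a log2FC of 1.13 (SE 0.093, edgeR adjusted p = 6.38e-07). AMOTL1 rose from 107 ± 5.67 to 135 ± 6.55 CPM (SD, n = 3 each), a log2FC of 0.34 (SE 0.048, edgeR adjusted p = 1.66e-04), but not past 0.001 without S6K1-/- replicate 1 (0.00162) or 2 (0.00103). The angiomotin genes thus had values on either side of 0, with -0.17 for AMOTL2, -0.26 for AMOT (SE 0.100, edgeR adjusted p = 0.100) and 0.34 for AMOTL1. RASSF5, an adaptor of the MST kinases, had a log2FC of -0.73 (edgeR adjusted p = 0.0230).

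Among cofactors of TEAD and YAP, 16 of 18 genes were tested and 1 was lower (6.25%, beside 2.54% of all genes tested), with a median log2FC of 0.06. At 0.05, 1 was lower and 4 were higher, where 8.31% and 5.47% of all genes were. RUNX2, the osteoblast factor, fell from 26, 23 and 27 WT counts to 9, 7 and 4 (log2FC -1.85, SE 0.309, edgeR adjusted p = 7.39e-04), but missed 0.001 whichever library was dropped, with 0.00365, 0.00137 and 0.00590 for WT replicate 1, 2 or 3 and 0.00172, 0.00477 and 0.00635 for S6K1-/- replicate 1, 2 or 3. VGLL4, which competes with YAP for TEAD, had 55.4 ± 2.47 CPM in WT and 50.9 ± 1.96 CPM in S6K1-/- hESCs (SD, n = 3 each, edgeR adjusted p = 0.121). SMAD3 had a log2FC of 0.20 (edgeR adjusted p = 0.00322) and ARID1A, a subunit of the SWI/SNF complex, 0.19 (edgeR adjusted p = 0.0128). VGLL1 had no count in any library.

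AP-1 factors bind next to TEAD at many enhancers, and of 8 AP-1 genes 1 was lower and 1 was higher, beside 2.54% and 1.42% of all genes tested, with a median log2FC of -0.20. JUN fell from 700, 656 and 615 WT counts to 452, 494 and 413, a log2FC of -0.48 (SE 0.063, edgeR adjusted p = 8.82e-05, 0.00133 without S6K1-/- replicate 3). FOS rose from 127, 126 and 119 WT counts to 170, 201 and 187, a log2FC of 0.65 (SE 0.101, edgeR adjusted p = 4.05e-04). With a library dropped, FOS stayed past 0.001 only for S6K1-/- replicate 1 (3.99e-04), and had 0.00183, 0.00131 and 0.00264 for WT replicate 1, 2 or 3 and 0.00271 and 0.00315 for S6K1-/- replicate 2 or 3. FOSB had a log2FC of -0.84 (edgeR adjusted p = 0.0175).

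**Figure D5:**
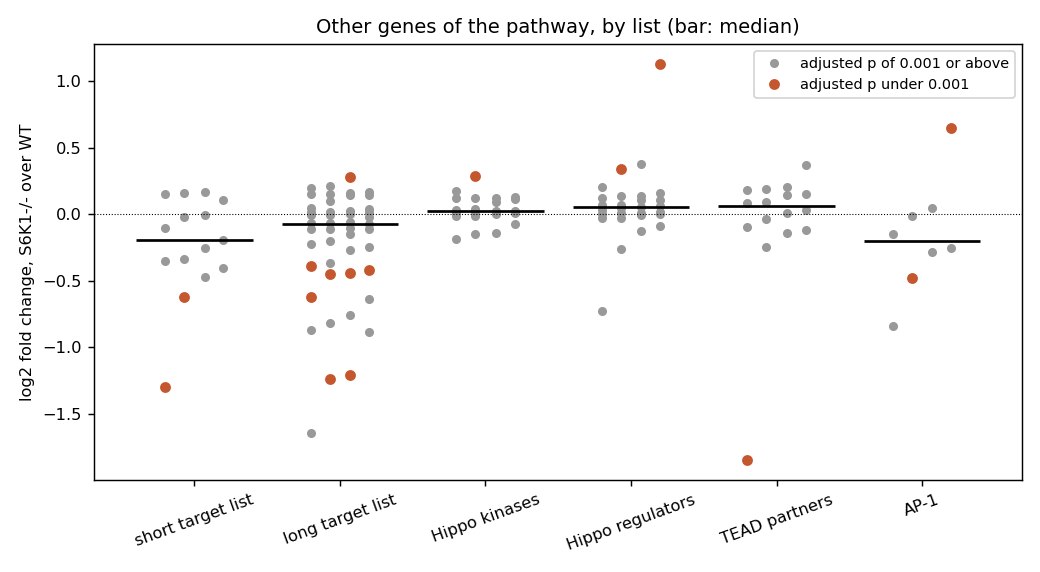
Log2 fold change of S6K1-/- over WT for the tested genes of 6 lists. Each point is a gene, orange where the adjusted p was under 0.001 and grey otherwise, and bars are medians. The medians of the short target list and of AP-1 lie at -0.19 and -0.20, and those of the Hippo kinases, Hippo regulators and TEAD partners at 0.03, 0.05 and 0.06.

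The labelled cell type was checked by 9 pluripotency markers, which summed to 5251 to 5395 CPM in WT and 4963 to 4968 CPM in S6K1-/- libraries, with DNMT3B called lower and none of the other 8 called at 0.001 (3.96% of all genes tested were called). Of 12 mesenchymal markers, 6 were tested and 4 were lower in S6K1-/- hESCs, beside 2.54% of all genes tested, and the list summed to 156 to 161 CPM in WT and to 73.7 to 76.6 CPM in S6K1-/- libraries, nearly all of it COL1A1, COL1A2, PDGFRB and TWIST2. DCN was at 0 in all libraries and COL3A1, LUM and PRRX1 had at most 2 counts. POSTN (log2FC -0.53, edgeR adjusted p = 0.168) and PDGFRA (log2FC 0.17, edgeR adjusted p = 0.633) did not pass. The 4 called markers were lower together with CCN1 and CCN2, and their part in that result was not tested.

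Of 10 amnion and trophoblast markers, 4 were tested and 1 was higher, beside 1.42% of all genes tested. The list summed to 423 to 460 CPM in WT and 416 to 447 CPM in S6K1-/- libraries, but KRT18 made up nearly all of it, at 430.04 ± 17.6 and 422 ± 15.5 CPM (SD, n = 3 each). GATA2 was higher, with 3.26 ± 0.181 CPM in WT and 5.96 ± 0.0646 CPM in S6K1-/- hESCs (SD, n = 3 each, log2FC 0.87, edgeR adjusted p = 6.39e-05). KRT7 had a log2FC of -0.82 and just missed the threshold (edgeR adjusted p = 0.00103), passing it without WT replicate 3 (9.18e-04). HAND1 and ELF5 were at 0 in all libraries.

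Of 9 neuroectoderm markers, 6 were tested, with 1 higher and 1 lower (1.42% and 2.54% of all genes tested), and the sum of 475 to 494 CPM in WT and 462 to 482 CPM in S6K1-/- libraries was nearly all NES. PAX6 was higher (log2FC 0.76, edgeR adjusted p = 2.69e-04), but not past 0.001 without WT replicate 1 (0.00186) or S6K1-/- replicate 2 (0.00149) or 3 (0.00228). DCX was lower (log2FC -0.54, edgeR adjusted p = 4.91e-04), and with a library dropped it stayed past 0.001 only for WT replicate 2 (4.74e-04), with values from 0.00120 to 0.00521 for the others. SOX1 was counted 6, 7 and 6 times in WT and 16, 17 and 12 times in S6K1-/- hESCs (log2FC 1.29, SE 0.334) and did not pass 0.001 (edgeR adjusted p = 0.0174), so that 2 markers were higher and 1 lower at 0.05 (5.47% and 8.31% of all genes). Of 9 endoderm and mesendoderm markers, 5 were tested and edgeR called 0 at 0.001, with 2 lower and 1 higher at 0.05 (8.31% and 5.47% of all genes). FOXA2 had a log2FC of -0.88 (edgeR adjusted p = 0.00108, 6.59e-04 without WT replicate 3), CXCR4 -1.26 (edgeR adjusted p = 0.0235) and MIXL1 0.24 (edgeR adjusted p = 0.0449), and the list summed to 19.1 to 23.3 CPM in WT and 17.9 to 19.5 CPM in S6K1-/- libraries. The part of these markers in the differences of CCN1 and CCN2 was not tested.

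The genes whose values over the 6 libraries were most like those of a target were found by the Euclidean distance between log2 CPM centred on the WT mean, leaving out genes whose mean was under 1 CPM. For CCN2 these were SLFN11 (distance 0.158, log2FC -2.28), the pseudogene LRRC37A11P (0.353, -2.09) and IQCA1 (0.388, -2.11). For CCN1 they were IRAK1 (0.117, -1.16), RGS5 (0.156, -1.11) and SHISA2 (0.167, -1.05). For ANKRD1, whose few counts make the distance depend on the 2 counts added before the logarithm, they were FAM241A (0.383), SLC8A2 (0.420) and MAOB (0.520). The distance takes in the difference between the groups as well as the spread within them, and LRRC37A11P is uncertain because reads can be shared with its paralogs.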

How the data were processed

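Total RNA of 3 WT and 3 S6K1-/- H7 hESC samples was sequenced by the authors as stranded mRNA libraries. Per the submitters' processing notes and the methods, reads were trimmed with Trim Galore 0.6.5, aligned to GRCh38 with Bowtie2 2.4.5, which is not splice-aware, and counted per gene with featureCounts; annotation release and strand setting are not given in the sources used here. The deposited counts are whole numbers without normalization. The authors' table of their own DESeq2 comparison (fold changes and p-values) was not used.

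Totals were 21896698 to 24473013 counts per library. Genes were filtered with filterByExpr, scaled by TMM and tested with edgeR 4.0.16 (quasi-likelihood F test, R 4.3.3), genotype being the only factor, with Benjamini-Hochberg adjustment over 19521 genes and the study's threshold of 0.001. CPM used TMM-scaled library sizes. Exon lengths came from GENCODE on GRCh38 and start windows from RefSeq. Steps were tested on simulated data.

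The members and lists were chosen with earlier results of these data known. PALS1 was matched as MPP5 and MAP4K6 as MINK1. Genes named are the members, up to 6 genes past the threshold per list by adjusted p, or the 3 with the smallest p where fewer passed, TEAD3, VGLL4, LATS1, AMOT and AMOTL1, RPS6KB1 and the 3 nearest genes of CCN1, CCN2 and ANKRD1. Of these, 1 gene is not reported here. Alternatives were DESeq2 1.42.0 (Wald test, and its size factors), total counts, other filters, the replicate block, each library left out, an adjusted p of 0.05, another exon length and a shorter motif.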

Additional observations from a re-analysis of the deposited data

How the results depend on the processing

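Over the 12 alternative fits the log2 fold change of CCN2 lay between -2.19 and -2.07 and that of CCN1 between -1.15 and -1.09. Of the 9 genes only TEAD1 changed sign. All these fits share libraries with the main fit, and dropping 1 library can move a group mean only little. The small moves are therefore no independent check. At an adjusted p under 0.05, calls numbered 4 among the 9 genes, 2689 over all genes, 6 in the short and 18 in the long target list, 2 Hippo kinases, 4 Hippo regulators and 5 TEAD partners. The 18 of the long list were 13 lower and 5 higher, and the 5 TEAD partners were 1 lower and 4 higher. With low-count genes kept, calls were 1573 over all genes, 5 short targets and 2 TEAD partners. TEAD partners fell to 0 with DESeq2's Wald test, with at least 10 counts in every library and with the replicate block, under which AP-1 genes fell to 1, and Hippo kinases fell to 0 with total counts. With the replicate block 664 genes were called over all genes and 6 in the long list; same-numbered libraries had deviations correlated by 0.0015 to 0.031 and share no stated batch, so the numbers do not pair them. With libraries left out in turn, calls ranged over all genes from 501 (without S6K1-/- replicate 3) to 680, in the short list from 2 to 4 (without WT replicate 2), in the long list from 4 (without S6K1-/- replicate 3) to 7, for Hippo kinases were 0 each time, for regulators from 1 (without S6K1-/- replicate 1 or 2) to 2, for TEAD partners 0 each time and for AP-1 from 0 (without S6K1-/- replicate 3) to 2. With the longest transcript as length, 6 WT ranks changed. Depth limits ANKRD1, with at most 6 counts, and the clone cannot be told apart from the genotype.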
